A study of Rattus norvegicus with 6 samples.

Results

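Genes of steroid synthesis and the gonadotropin receptors were examined in cultured newborn rat ovaries treated with connective tissue growth factor (CTGF). The members were taken by name as 9 genes, and a probe set was used where the array annotation gives it exactly 1 symbol and that symbol is one of these genes. Of the 9 genes, 6 had a probe set, 1 each, among 27342 probe sets in all. These were Star, Cyp11a1, Cyp17a1 and Hsd17b1 of the synthesis pathway and the receptors Fshr and Lhcgr. No probe set carried the symbol of Cyp19a1, Fdxr or Nr5a1, and these 3 genes were not analysed here.

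Whole ovaries of female Sprague-Dawley pups, taken at day 0 of age, were kept for 24 h in organ culture with human CTGF at 500 ng/ml (the CTGF group) or with no treatment (the control group). Each group had 3 samples, and a sample pooled 2 to 3 ovaries, from different pups of a litter, that had shared a culture well. The titles give each sample a replicate number, which was taken here as its culture date batch. Each of the 3 batches then held 1 CTGF pool and 1 control pool, so the samples were compared in pairs. RNA of the whole organ was hybridized to arrays, so fewer cells of a type and less RNA per cell cannot be told apart.

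Steroid synthesis begins when the protein encoded by Star moves cholesterol into the mitochondrion. There the enzyme encoded by Cyp11a1 cleaves the side chain to give pregnenolone, with electrons passed from the ferredoxin reductase Fdxr through ferredoxin. The enzyme of Cyp17a1 then leads to androgens, aromatase (Cyp19a1) turns androgens into estrogens, and the enzyme of Hsd17b1 reduces estrone to estradiol. In the adult ovary, theca cells respond to luteinizing hormone through Lhcgr and make androgens, and granulosa cells respond to follicle-stimulating hormone through Fshr and make estrogens. The nuclear receptor NR5A1 is known as an activator of many of these genes.

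The start regions of the 3 measured members found in the RefSeq promoter table (GRCr8) are given for orientation, since the NR5A1 core and the E-box are elements known for these genes. Each runs from 250 bases before to 50 after the annotated start and is written 5′ to 3′, with capitals for the NR5A1 core AGGTCA and the E-box CACGTG.
Cyp11a1, chr8:67318415-67318714, plus strand: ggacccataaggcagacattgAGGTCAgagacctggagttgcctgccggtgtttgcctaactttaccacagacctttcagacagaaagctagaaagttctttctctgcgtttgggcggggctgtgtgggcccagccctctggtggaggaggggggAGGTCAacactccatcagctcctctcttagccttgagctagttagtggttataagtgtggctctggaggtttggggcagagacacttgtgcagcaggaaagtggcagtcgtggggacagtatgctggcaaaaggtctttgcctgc
Fshr, chr6:10952079-10952378, plus strand: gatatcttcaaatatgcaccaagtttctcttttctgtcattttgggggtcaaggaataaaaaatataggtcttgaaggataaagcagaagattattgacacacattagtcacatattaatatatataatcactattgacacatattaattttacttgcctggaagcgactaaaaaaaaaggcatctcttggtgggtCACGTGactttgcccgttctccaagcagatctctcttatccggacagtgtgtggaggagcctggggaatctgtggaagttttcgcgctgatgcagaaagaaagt
Lhcgr, chr6:11415165-11415464, plus strand: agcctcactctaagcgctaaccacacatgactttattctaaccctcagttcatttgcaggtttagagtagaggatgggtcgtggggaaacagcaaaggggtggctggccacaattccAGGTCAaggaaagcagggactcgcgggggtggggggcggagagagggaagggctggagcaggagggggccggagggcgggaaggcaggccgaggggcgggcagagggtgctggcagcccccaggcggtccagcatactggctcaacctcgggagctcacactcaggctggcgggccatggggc

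The core AGGTCA occurred 2 times in the Cyp11a1 region, at 229 and 95 bases before the start, and 1 time in the Lhcgr region, at 133 bases before it. It was found on either strand in 16.2% of 33469 promoters of this length. The E-box CACGTG occurred 1 time, 54 bases before the start of Fshr, and was present in 6.42% of the promoters. The longer NR5A1 motif CAAGGTCA (in 1.52% of promoters), which overlaps the core, the cAMP response element TGACGTCA (1.83%) and TATAAA (14.2%) were searched on both strands too, and these letters were not in the 3 regions. Only exact letters were searched, so variants of a motif stay in lower case and the capitals are not a full list of sites. A match is a description of the sequence alone.

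Array medians of the deposited log2 signals were between 5.82 and 5.84. Background was gauged from 42 probe sets for genes that belong to lens, retina, pancreas, pituitary, lung and other tissues and are called silent genes below. They had a median signal of 21.8. Their 95th percentile, 63.0, is called the background limit, and 48.1% of all probe sets exceeded it. Among markers of the ovary, 9 of 10 oocyte and 8 of 10 pre-granulosa probe sets exceeded the limit. For other steroid-producing organs, 1 of 7 adrenal cortex probe sets (Mc2r, the corticotropin receptor) and 1 of 6 testis probe sets (Ptgds) did. Probe sets differ in how strongly they bind, so signals of different genes were set only against background, not against each other. Each pair of arrays had the same mean in all 3 batches, with a gap of at most 0.005 in any probe set. The SD of a group therefore holds no spread between culture dates, and is fixed by the 3 paired differences.

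Among the synthesis genes, Star exceeded the background limit on all 6 arrays and Cyp17a1 on 4 of 6, in values where the pairs have equal means. Cyp11a1 and Hsd17b1 lay below the median of the silent genes. The CTGF and control arrays overlapped in all 4. Cyp17a1 had the widest spread between batches, lower with CTGF in batches 1 and 2 and higher in batch 3.

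The Star signal was 89.3, 88.0 and 80.4 in CTGF ovaries of batches 1, 2 and 3, against 84.4, 85.0 and 93.7 in control ovaries. The groups overlapped. The batch 3 pair differed most and, as equal pair means require, held both the lowest and the highest value. The means were 85.9 ± 4.77 with CTGF and 87.7 ± 5.18 in control ovaries (SD, n = 3 each). The log2 difference, CTGF minus control, was -0.03 with a standard error of 0.08 and a 95% interval of -0.23 to 0.17, which on the fold scale runs from 0.853 to 1.13 times control (adjusted p = 0.994, limma). Without batch 3 the log2 difference was 0.065 in place of -0.03.

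Cyp11a1 had signals of 17.6, 17.0 and 17.6 in CTGF ovaries and 17.0, 17.5 and 16.9 in control ovaries. Of the 42 silent probe sets, 29 were brighter, so a direction cannot be read above background. The log2 difference was 0.02 with a standard error of 0.06 and a 95% interval of -0.13 to 0.18.

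Cyp17a1 had signals of 62.2, 63.6 and 92.4 in CTGF ovaries of batches 1, 2 and 3, against 86.8, 85.0 and 58.5 in control ovaries. Since the pairs have equal means, each pair gave 1 low and 1 high value around the same level. The CTGF pool was the low one in batches 1 and 2 and the control pool in batch 3. The ratio of CTGF to control was thus 0.717 and 0.747 in batches 1 and 2 and 1.58 in batch 3. The means were 72.7 ± 17.0 with CTGF and 76.8 ± 15.9 in control ovaries (SD, n = 3 each). The log2 difference was -0.08 with a standard error of 0.22 and a 95% interval of -0.61 to 0.45, or 0.654 to 1.37 times control (adjusted p = 0.994, limma). Without batch 3 it was -0.45, with an unadjusted p of 0.00577 and an adjusted p of 0.781 in limma, and without batch 1 or 2 it was 0.12 or 0.09. Of the 3 low values, 62.2 with CTGF and 58.5 in control ovaries lay under the background limit of 63.0, and 63.6 with CTGF lay just over it. The mean signal of all 6 arrays was 73.5, and 1 of the 42 silent probe sets was brighter.

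Hsd17b1 had signals of 15.8, 18.3 and 16.3 in CTGF ovaries and 17.9, 15.5 and 17.4 in control ovaries. The CTGF pool was the higher in batch 2 and the lower in batches 1 and 3, and 33 of the 42 silent probe sets were brighter than this gene. The log2 difference was -0.01 with a standard error of 0.10 and a 95% interval of -0.24 to 0.22.

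**Figure D1:**
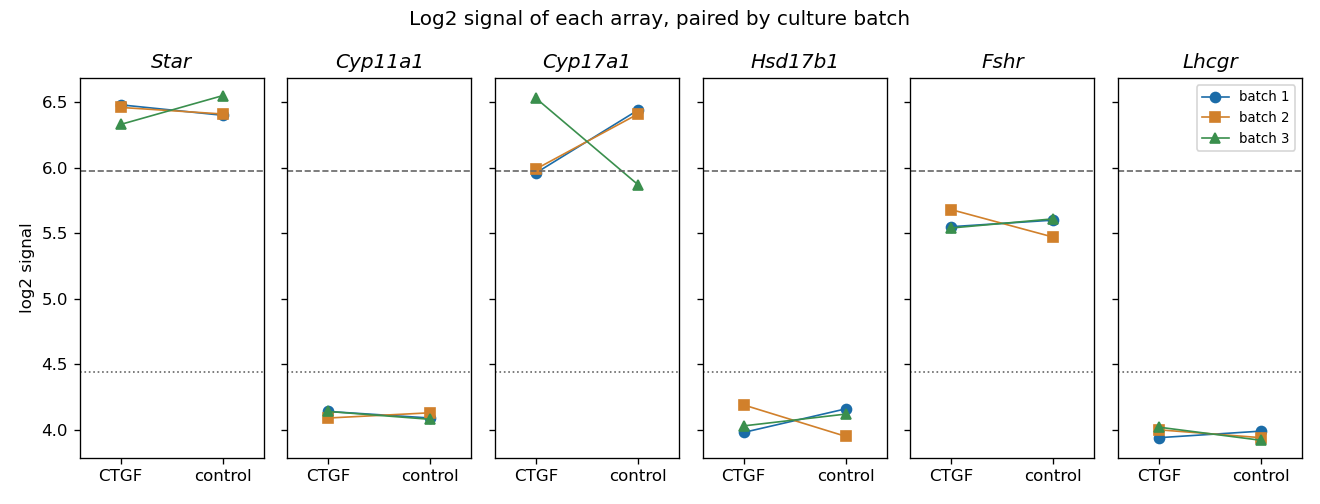
Log2 signal (vertical axis) of the 6 measured genes in each array, with CTGF on the left and control on the right of each panel and lines joining the pair of a culture batch (circles batch 1, squares batch 2, triangles batch 3). Dashed and dotted lines mark the background limit and the median of the silent genes. The lines of Cyp17a1 cross, and Cyp11a1, Hsd17b1 and Lhcgr lie under the dotted line.

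Of the receptors, Fshr had signals between the silent genes' median and the background limit, and Lhcgr lay below the median. In both, the CTGF and control arrays overlapped.

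The Fshr signal was 46.9, 51.3 and 46.5 in CTGF ovaries, against 48.5, 44.3 and 48.8 in control ovaries. The pair of batch 2 differed most, so with equal pair means its CTGF pool had the highest value and its control pool the lowest. In batches 1 and 3 the CTGF pool was slightly the lower. The means were 48.2 ± 2.65 with CTGF and 47.2 ± 2.52 in control ovaries (SD, n = 3 each). The log2 difference was 0.03 with a standard error of 0.08 and a 95% interval of -0.17 to 0.23, or 0.892 to 1.17 times control (adjusted p = 0.994, limma). Without batch 2 it was -0.06. Of the silent probe sets, 4 of 42 were brighter than Fshr, so its signal lay within their range.

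Lhcgr had signals of 15.3, 16.0 and 16.2 in CTGF ovaries and 15.9, 15.3 and 15.1 in control ovaries. The CTGF pool was the lower in batch 1 and the higher in batches 2 and 3. The log2 difference was 0.04 with a standard error of 0.07 and a 95% interval of -0.13 to 0.20, and 40 of the 42 silent probe sets were brighter. Its p was the smallest of the members, at 0.604 before adjustment in limma. Of the 15096 other probe sets with 1 symbol, those whose 3 batch differences lay closest to the Lhcgr values (-0.05, 0.06 and 0.10) were Hrc, Prss16 and Tas2r105, each at a Euclidean distance of 0.01 over the 3 batches. Their mean signals of 18.0 to 27.5 were below the background limit.

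**Figure D2:**
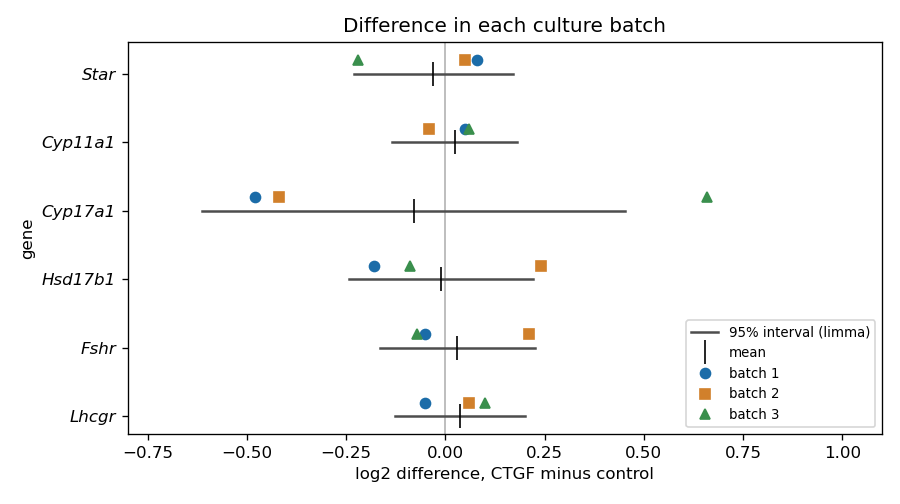
Log2 difference, CTGF minus control (horizontal axis), of the 6 measured genes (vertical axis). Circles, squares and triangles are batches 1, 2 and 3, shown with the mean (tick) and its 95% interval from limma (line). Every interval holds 0, and that of Cyp17a1, from -0.61 to 0.45, is the widest.

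As a list, the 6 genes held 3 differences above 0 and 3 below, between -0.08 and 0.04, with a median of 0.01 beside 0.00 over all probe sets. By batch their median was -0.05, 0.055 and -0.005. At an unadjusted p under 0.05 in limma, 0 of the 6 were higher and 0 lower, where 1.45% of all probe sets were higher and 1.89% lower. The thresholds of the methods, a ratio of un-logged means over 1.2 or under 0.83 and a difference over 10, combined with limma's p in place of that of the methods' 2-way test, were met by 0 of the 6 and by 0.435% of all, or 119 probe sets. With the p of the 2-way test 30 probe sets met them. After adjustment over all probe sets 0 of the 6 and 0% of all passed, with a smallest adjusted p of 0.994 in limma. Before adjustment 915 of the 27342 probe sets had a p under 0.05 in limma and 1147 in the methods' 2-way test. Both counts are below the share of 0.05 that such a threshold passes where nothing differs. The CTGF arrays lay all above the control arrays in 0 of the 6 genes, against 9.41% of all probe sets, and all below in 0, against 10.9%. In these values, where the pairs have equal means, arrays that do not overlap are the same 5551 probe sets as those with 1 sign in all 3 batches. With so few genes, none called is close to what these shares give. The intervals of the 5 genes other than Cyp17a1 lay within 0.846 to 1.17 times control, which bounds a difference of signal but not of transcript for those at background.

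Of the 6 genes, 1 had an SD of the 3 batch differences over the 95th percentile of all probe sets, or 16.7% against 4.99%. The SD of the 3 batch differences was 0.64 for Cyp17a1, above 99.7% of all probe sets, and of the 13160 probe sets with signals above the background limit 50 had a larger one. It was 0.22 for Hsd17b1, 0.17 for Star, 0.16 for Fshr, 0.08 for Lhcgr and 0.06 for Cyp11a1, with 0.12 as the median of all probe sets. The probe sets with 1 symbol closest to Cyp17a1 over the 3 batches were Olr673, Chac2 and Or6b1, at distances of 0.26, 0.28 and 0.28 and with mean signals of 23.1 to 43.3. Cyp17a1 was singled out for its spread after its values were seen. These 3 and the genes with wide spreads named next were also picked after their values were seen.

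Some marker lists differed between batches as well. Theca and interstitial markers had a median log2 difference of 0.135, 0.01 and -0.23 in batches 1, 2 and 3, with Pdgfra, a receptor of stromal cells, at 0.11, -0.14 and -1.03. Their summed signal in batches 1, 2 and 3 was 538.7, 502.4 and 405.5 in CTGF ovaries, against 492.8, 526.1 and 665.2 in control ovaries. Pdgfra was the brightest of the list, at a mean signal of 305.1. In this list of 4 probe sets, 2 lay above the background limit, and Insl3, the defining product of mature theca cells, did not, at 22.3. Adrenal cortex markers had medians of 0.02, -0.03 and -0.23 in the 3 batches. They summed to 195.8, 202.3 and 181.1 with CTGF, against 190.7, 187.8 and 206.4 in control ovaries. Cyp21a1, a defining gene of that tissue, was at 14.4. Over the same batches, luteal markers had medians of 0.025, 0.125 and -0.155, pre-granulosa markers -0.095, 0.145 and -0.055, oocyte markers 0.04, 0.045 and 0.125, and testis markers 0.015, 0.045 and -0.04. In batch 3, where Cyp17a1 was higher with CTGF, the oocyte median was above 0 and the other 5 were below it. Only 1 of 7 adrenal, 1 of 6 testis and 1 of 4 luteal probe sets exceeded the background limit, so these medians rest mostly on signals at background. The silent genes had a batch 3 median of 0.04. The part of these cell types in the Cyp17a1 values was not tested.

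**Figure D3:**
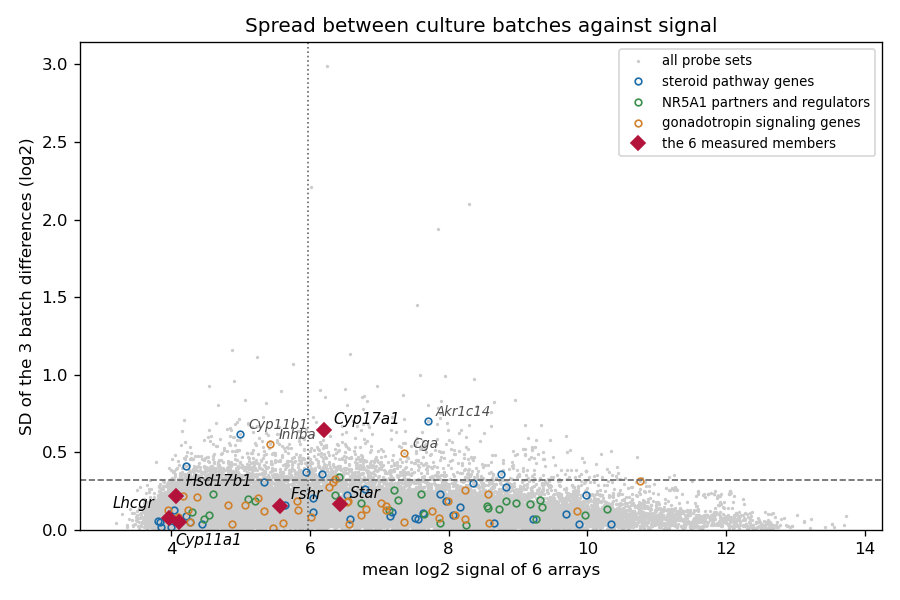
SD of the 3 batch differences on the log2 scale (vertical axis) against mean log2 signal (horizontal axis) for all probe sets (grey), the 6 measured members (diamonds) and 3 related gene lists (open circles). The dashed line marks the 95th percentile of the SD, 0.32, and the dotted line the background limit, and Cyp17a1 lies at an SD of 0.64.

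The other genes of the steroid pathway were taken from a list of 44, of which 36 were measured by 38 probe sets. At an unadjusted p under 0.05 in limma, 1 was higher with CTGF and 1 lower, where 1.45% and 1.89% of all probe sets were, and 0 passed after adjustment. The arrays of the groups did not overlap in 9 of the 38, 5 higher and 4 lower, beside 9.41% and 10.9% of all. Tspo, a protein of the outer mitochondrial membrane long linked to cholesterol import, had signals of 68.6, 74.0 and 69.6 in CTGF ovaries and 63.1, 58.9 and 62.7 in control ovaries. Its groups did not overlap, with a log2 difference of 0.20 (standard error 0.07, unadjusted p = 0.0317 in limma, adjusted p = 0.994). Its control arrays lay at the background limit or under it, and 2 of the 42 silent probe sets were brighter than its mean. Cyp21a1, an adrenal hydroxylase, had 13.6, 13.7 and 13.3 in CTGF ovaries and 15.1, 15.1 and 15.7 in control ovaries, which also did not overlap but lie below the silent genes' median. Its log2 difference was -0.18 (standard error 0.06, unadjusted p = 0.0331 in limma).

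Cyp1b1, an estrogen hydroxylase and one of the 4 brightest genes of the list, had 1053, 1184 and 1024 in CTGF ovaries, against 968.8, 861.1 and 1003 in control ovaries. Its CTGF arrays all lay above its control arrays, with a log2 difference of 0.20 (standard error 0.10, unadjusted p = 0.079 in limma). Sult2a1, a sulfotransferase of hydroxysteroids, had a log2 difference of -0.27 (standard error 0.14), carried by batch 2 at -0.70, and a mean signal of 61.5, below the background limit. The other bright genes were Soat1, which esterifies cholesterol, at a log2 difference of 0.08, Hsd17b11 at -0.04 and Hsd17b4, of peroxisomal fat oxidation, at -0.01. Hsd3b2, of the step between pregnenolone and progesterone, had a log2 difference of -0.12 (standard error 0.07), and its probe set may also bind transcripts of near-identical relatives. Fdx1, the ferredoxin that serves Cyp11a1, had one of 0.01.
Of the 38 probe sets, 6 had an SD of the batch differences over the 95th percentile of all probe sets, or 15.8% against 4.99%. This share was 3.70% for the partners and regulators of NR5A1 and 7.32% for the gonadotropin signaling genes, both described below. Of the 6, Sult2a1, Cyp11b1 and Cyp11b2 had mean signals below the background limit. Sts had log2 differences of -0.42, 0.15 and 0.24 in batches 1, 2 and 3, and Hsd17b12 0.19, 0.40 and -0.30. Akr1c14, which reduces progestins and androgens, had signals of 247.3, 222.9 and 155.4 in CTGF ovaries and 174.9, 194.0 and 278.2 in control ovaries. It was higher with CTGF in batches 1 and 2 and lower in batch 3, the reverse of Cyp17a1. Cyp11b1, an adrenal hydroxylase that is also on the adrenal marker list and has near-identical relatives, had log2 differences of 0.24, 0.92 and -0.32 in the 3 batches, at signals below the background limit.

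The partners and regulators of NR5A1 were a list of 30, of which 26 were measured by 27 probe sets. Of these 0 had an unadjusted p under 0.05 in limma. Their differences lay between -0.09 and 0.12, with 15 above 0 and 11 below and a median of 0.01. The CTGF arrays lay all above the control arrays in 0 of the 27 and all below in 0, beside 9.41% and 10.9% of all. Nr0b1, a repressor of NR5A1, had signals of 117.8, 110.7 and 104.0 in CTGF ovaries and 96.3, 101.8 and 108.4 in control ovaries, which overlapped, and a log2 difference of 0.12 (standard error 0.08). The brightest were Sp1, Wt1, Crebbp and Gata4. Wt1, a factor of the gonadal somatic lineage, had a log2 difference of 0.01 (standard error 0.07) and Gata4, which acts with NR5A1, one of -0.03 (standard error 0.09). Of 2 probe sets for the general factor Sp1, the brighter had 0.10 (standard error 0.08) and the other -0.02. Creb1, which binds the cAMP response element, had 0.09 and the corepressor Nr0b2, below the silent genes' median, -0.09.

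Genes that act before or after the gonadotropin receptors were a list of 44, with 40 measured by 41 probe sets. Again 0 had an unadjusted p under 0.05 in limma, and the median difference was 0.00 with 18 above 0 and 22 below. The CTGF arrays lay all above the control arrays in 4 of the 41 and all below in 2, beside 9.41% and 10.9% of all. Arrb2, an arrestin that uncouples activated receptors, had 91.1, 89.9 and 88.6 in CTGF ovaries and 97.7, 99.0 and 100.4 in control ovaries. Its groups did not overlap, with a log2 difference of -0.14 (standard error 0.06, unadjusted p = 0.0683 in limma). Grk5, a kinase of activated receptors, had a log2 difference of 0.17 (standard error 0.11), Foxo1, a factor of granulosa cells, 0.12 (standard error 0.08) and Adcy8, an adenylyl cyclase at signals below the silent genes' median, -0.10.
The brightest of this list were Sgk1, a kinase induced by follicle-stimulating hormone in granulosa cells, at a log2 difference of 0.05, the G protein subunit Gnaq at 0.10, the kinase subunit Prkar2a at 0.04 and the regulator Rgs2 at -0.02. Inhba, an activin subunit below the background limit, had log2 differences of 0.01, 0.26 and -0.80 in batches 1, 2 and 3, and Cga, the common subunit of the gonadotropins, 0.29, -0.06 and -0.69. Both were lower with CTGF in batch 3, as Akr1c14 was.

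**Figure D4:**
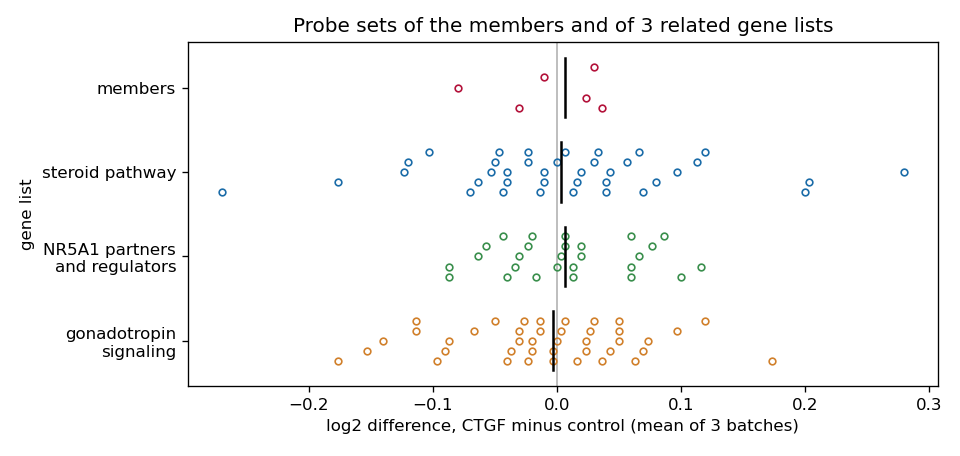
Log2 difference, CTGF minus control (horizontal axis, mean of 3 culture batches), of each probe set of the members and of 3 related gene lists (vertical axis; vertical position within a list has no meaning). Black bars mark the medians, which lie between -0.003 and 0.007, and the members lie between -0.08 and 0.04.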

How the data were processed

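The authors summarized Affymetrix Rat Gene 1.0 ST arrays with RMA in Partek (named in the submitters' processing notes), with a GC-content adjustment, and deposited 1 log2 value per probe set. Signals here are 2 to that power. The means of the pairs were already equal between batches in these values. Deviations of paired arrays from their group means therefore correlated at -0.9988, -0.9988 and -0.9991, and the pairing was taken from the replicate numbers in the titles.

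The difference CTGF minus control was fitted in R 4.3.3 by the moderated linear model of limma 3.58.1, with a term for culture batch, no filter and Benjamini-Hochberg adjustment over 27342 probe sets. The fit had 2 residual and 4.22 prior degrees of freedom. An exact sign-flip test of 3 pairs cannot give a p under 0.25, so none was used. Of 15097 probe sets with 1 symbol, 323 with several and 11922 with none, only the first were named, and 15067 matched a RefSeq gene by Entrez number, whose current symbol was also searched for the related lists. The number of arrays limits the precision. The procedure was tested on simulated data.

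The members and lists were chosen with earlier results of these data known. Named genes were all members, up to 4 genes of each related list with the smallest p and up to 4 with the highest signal, and the 3 closest to the member with the smallest p. The E-box, Hsd3b2, Fdx1, Pdgfra and the genes said to be picked later were added after values or sequences were seen. Marker lists of luteal cells gave a median log2 difference of -0.06, testis 0.00, oocytes 0.03 and pre-granulosa cells -0.03. Alternatives were no batch block, centred or quantile-normalized arrays, a signal filter, limma-trend with robust moderation, the methods' 2-way test, the brightest probe set per gene, no minimum difference, and each batch left out.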

Additional observations from a re-analysis of the deposited data

How the results depend on the processing

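With 3 pairs, single batches decided the sign of small differences. Leaving out 1 replicate at a time, the log2 difference ran from -0.45 to 0.12 for Cyp17a1, -0.085 to 0.065 for Star, -0.135 to 0.075 for Hsd17b1 and -0.06 to 0.08 for Fshr. It kept its sign for Cyp11a1 and Lhcgr, but both lay below the silent genes' median and fell to 0.005 without replicate 3. The members' median ran from -0.0175 to 0.0725, and their count at an unadjusted p under 0.05 from 0 to 1 (Cyp17a1, without replicate 3). Probe sets at the thresholds of the methods with limma's p ran from 185 to 273, against 119 with all. With arrays centred on their median Hsd17b1 was at 0.0033 in place of -0.01, and calls at these thresholds were 75 higher and 51 lower, against 52 and 67 as deposited. At an unadjusted p under 0.05 the split was 560 and 383, against 397 and 518. With no replicate block, 4415 probe sets had an unadjusted p under 0.05, against 915, since this fit counts 4 residual degrees of freedom in values whose batch means are equal, and no member passed. With the filter on signal 358 of 13160 did, and the members' median was -0.055 over the 2 left. The thresholds were met by 30 probe sets with the methods' 2-way test and by 217 with no minimum difference. No fit called a probe set after adjustment. The cause of these shifts was not tested beyond the fewer probe sets or samples in a fit.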
